A study of Mus musculus with 2 samples.

Results

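Cycling macrophages were the barcodes whose RNA carried both a complement C1q macrophage signature and the proliferation transcripts Mki67 and Top2a. A barcode was a member when mitochondrial UMIs (unique molecular identifiers, each counting 1 captured RNA molecule) were at most 10% of its total, when C1qa, C1qb and C1qc together had at least 30 UMIs, and when Mki67 and Top2a together had at least 4. It also needed at least 1 UMI of Ptprc (CD45), at most 1 UMI over Cd3d, Cd3e and Cd3g, and 0 UMIs of Cd79a. The rule found 376 members among 12514 barcodes, 46 of 5320 in library 1 and 330 of 7194 in library 2.

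Tissue macrophages are long-lived phagocytes that clear dying cells and present antigen, and they either derive from blood monocytes or renew themselves by division in place under the growth factor CSF1. A dividing cell licenses and copies its DNA in S phase and separates the copies in mitosis. Each step has its own set of transcripts, most of them switched on by E2F factors before replication and by B-MYB and FOXM1 before mitosis. In tumours, locally dividing macrophages are one source of the macrophage pool, beside monocyte recruitment.

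The CD45+ cells came from subcutaneous tumours of the MTC-Q1 mouse oral cancer line in C57BL/6 mice, grown from miR-21 KO cells in one sample and from WT cells in the other. The knockout was carried by the injected tumour cells, and the labels name no genetic change in the host whose macrophages are described here. All mice had received cisplatin, a DNA-crosslinking drug, at 5 mg/kg after 2 weeks of tumour growth, and cells were taken 72 hours later, so no untreated tumour serves as a control. Dead cells were removed, CD45+ cells were selected on magnetic beads, and single-cell 3' RNA libraries were made with the 10x Genomics Chromium system. The labels name 1 sample per group and do not say how many animals it held. The 2 libraries are told apart by the suffix of the barcode, which no label ties to a tumour genotype. They are therefore called library 1 and library 2, no direction between miR-21 KO and WT can be given, and no test between conditions was possible. Intervals are exact 95% intervals that cover counting error only.

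The barcodes of library 1 summed to 57488236 UMIs, those of library 2 to 149734240, and the typical barcode was shallower in library 1 (median 7169 UMIs) than in library 2 (15247.5). Members had a median of 26872 UMIs in library 1 and 22249.5 in library 2. The macrophages they are set against below passed every other limit but held 0 Mki67 and Top2a UMIs. There were 217 of these in library 1 and 1110 in library 2, with medians of 14596 and 15477 UMIs, and they are called zero macrophages. Median mitochondrial shares were 3.81% and 2.54% in members and 2.39% and 2.00% in zero macrophages. Gm42418, a transcript that overlaps ribosomal RNA sequence, took 31570 and 10110 CPM (UMIs of the gene scaled to a common total per set) in members of library 1 and library 2, and 35310 and 12900 CPM in zero macrophages, so it separated the libraries and not the cycling state. The libraries shared 8 barcode sequences, none of them among the members.

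Macrophage genes that the rule did not use were also found in members. Csf1r, the receptor for CSF1, stood at 496 CPM in members of library 1 and 487 CPM in members of library 2. Adgre1, which encodes the F4/80 surface protein, stood at 208 and 201 CPM. The 20 macrophage genes together reached 14480 and 15360 CPM in members, against 1162 and 2629 CPM in cycling T-marker barcodes chosen by the same Mki67 and Top2a limit. None of the 20 was at 0 in members of either library. The T-marker barcodes were limited to at most 3 C1q UMIs, so this gap follows in part from how the sets were chosen. Whether the dividing cell of a barcode was the macrophage was not tested.

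Cycling macrophages were 14.2% (10.6 to 18.5) of all C1q macrophages in library 1, 46 of 323, and 17.5% (15.8 to 19.3) in library 2, 330 of 1886. The intervals overlap. Of all barcodes, they were 0.865% (0.634 to 1.15) in library 1 and 4.59% (4.12 to 5.10) in library 2, where C1q macrophages as a whole were more frequent. Of all barcodes with at least 4 Mki67 and Top2a UMIs, macrophages made up 19.1% (14.3 to 24.6) in library 1 and 17.7% (16.0 to 19.5) in library 2.

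The cycling share of lymphocytes differed far more between the libraries. Among T-marker barcodes it was 3.06% (2.50 to 3.72) in library 1 and 37.2% (34.7 to 39.7) in library 2, and among NK-marker barcodes 14.2% (8.76 to 21.2) and 26.9% (23.9 to 30.2). Under this rule the macrophage share lay close in both libraries where the T-cell share did not. Before the Ptprc, CD3 and Cd79a limits, cycling barcodes were 60 of 405 C1q barcodes in library 1 and 536 of 2363 in library 2. Because the limit is set in raw UMIs, depth enters these shares. With macrophage barcodes thinned to 5000 UMIs their shares became 9.25% (27 of 292) in library 1 and 7.94% (125 of 1575) in library 2. The order of the libraries thus turned round. The lymphocyte shares were not thinned.

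The Mki67 and Top2a limit cut through a continuum. The 28 members with 4 such UMIs, just inside, had 112 CPM of Pcna, 9.76 CPM of Ccnb1 and 27.6 CPM of Birc5. The 42 macrophages with 3 UMIs, just outside, had 107, 11.6 and 30.9 CPM. Members varied from 4 to 110 Mki67 and Top2a UMIs in library 1, with a median of 24, and from 4 to 111 in library 2, with a median of 16.5. At the C1q limit, 4 members had 30 to 39 C1q UMIs, and 7 further barcodes with 20 to 29 fell outside. The limit of at most 1 CD3 UMI left out many more barcodes in library 2: of 60 and 536 barcodes with enough C1q and cycle UMIs, it removed 9 in library 1 and 197 in library 2.

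The cell cycle genes below describe what the rule selected and test nothing, since they move with Mki67 and Top2a. A gene counted as past the limit when it had at least 50 UMIs over both sets in each library, CPM levels apart by 2-fold or more, and a counting interval lying beyond 1.5-fold, with 1 direction in both libraries. Of 7261 genes with enough UMIs, 327 (4.5%) were past the limit with higher levels in members and 35 (0.482%) with lower levels. Of the 327, 115 belonged to the cell cycle lists, 8 to another list and 204 to none. All ratios are log2 ratios of CPM, members over zero macrophages, and the median over all genes was -0.02 in library 1 and -0.03 in library 2.

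S phase genes were present at every step. All 22 measured genes of origin licensing and the replication fork were past the limit, with median log2 ratios of 2.76 in library 1 and 2.40 in library 2. Mcm5, a subunit of the MCM helicase that unwinds DNA, stood at 89.2 and 89.8 CPM in members and at 9.10 and 12.7 CPM in zero macrophages. Clspn, which encodes the fork protein claspin, stood at 86.2 and 73.2 CPM in members against 1.47 and 2.57 CPM. Pcna, the sliding clamp of the replisome, separated the sets less sharply, at 175 and 144 CPM against 79.2 and 53.6 CPM.

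Nucleotide supply genes were past the limit in 8 of 12. Rrm2, the regulated subunit of ribonucleotide reductase, stood at 123 and 104 CPM in members against 1.17 and 2.30 CPM in zero macrophages. Tyms, thymidylate synthase, stood at 99.7 and 117 CPM against 4.99 and 8.41 CPM. Dck, a kinase of the salvage pathway, was near equal with log2 ratios of 0.43 and 0.17. Of histone and chromatin assembly genes 18 of 19 were past the limit; Hist1h1b, a linker histone of S phase, had 165 and 301 CPM against 1.76 and 4.45 CPM. Histone genes are near-identical copies of each other, so how reads were divided among them is uncertain.

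The genes of mitosis separated the sets most. All 24 measured spindle and kinetochore genes were past the limit, with medians of 5.52 in library 1 and 4.95 in library 2. Hmmr, a spindle assembly protein, stood at 111 and 95.7 CPM in members and at 0.587 and 0.964 CPM in zero macrophages. Its log2 ratios were 7.56 (5.68 to 10.62) and 6.63 (5.96 to 7.40). Nusap1, a microtubule bundling protein, stood at 196 and 162 CPM against 1.47 and 1.55 CPM. Esco2, which establishes cohesion between sister chromatids, ranked highest by the smaller of its 2 ratios among measured genes with at least 50 CPM in a set, at 61.5 and 40.2 CPM against 0.293 and 0.375 CPM.

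Of 29 genes of mitotic motors, cytokinesis and exit, 27 were past the limit. Kif11, the kinesin that pushes spindle poles apart, stood at 72.7 and 63.5 CPM in members against 0.587 and 0.696 CPM in zero macrophages. Ube2c, an enzyme that marks mitotic proteins for destruction, reached 412 and 472 CPM against 7.34 and 12.1 CPM. The exceptions were Espl1, the protease separase, and Pttg1, its inhibitor securin. Securin stood at 54.7 and 78.5 CPM in members and at 96.6 and 95.6 CPM in zero macrophages, and so was the only one of the list with lower levels in members of both libraries.

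To set these genes beside their regulatory sequence, the 250 bases before the start of 3 genes are shown. The genes are the highest-ranked eligible members of the motor, cyclin and replication lists past the limit. Genes without a promoter window or on a chromosome left out of the search were passed over. The sequences are RefSeq promoter windows of build GRCm38.p6, on the strand of the gene. The windows were those of Kif11 (chr19:37376132-37376381, plus strand), Ccnb2 (chr9:70421555-70421804, minus strand) and Clspn (chr4:126556730-126556979, plus strand). Capitals mark the motifs searched, on either strand: CCAAT (the site of NF-Y), TTTGAA (the core of the cell cycle homology region, CHR, through which mitotic genes are repressed in resting cells) and GCGGGAA (a form of the E2F site).
Kif11: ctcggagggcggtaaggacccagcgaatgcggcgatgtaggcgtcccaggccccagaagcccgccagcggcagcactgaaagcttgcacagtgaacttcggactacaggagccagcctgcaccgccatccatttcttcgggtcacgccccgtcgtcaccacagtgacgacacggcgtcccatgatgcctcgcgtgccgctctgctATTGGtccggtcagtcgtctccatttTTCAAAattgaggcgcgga
Ccnb2: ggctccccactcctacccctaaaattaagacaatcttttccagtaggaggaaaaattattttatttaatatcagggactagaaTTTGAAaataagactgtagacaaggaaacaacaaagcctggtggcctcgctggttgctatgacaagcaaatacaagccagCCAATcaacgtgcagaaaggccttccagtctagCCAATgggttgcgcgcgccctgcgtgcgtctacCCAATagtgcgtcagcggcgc
Clspn: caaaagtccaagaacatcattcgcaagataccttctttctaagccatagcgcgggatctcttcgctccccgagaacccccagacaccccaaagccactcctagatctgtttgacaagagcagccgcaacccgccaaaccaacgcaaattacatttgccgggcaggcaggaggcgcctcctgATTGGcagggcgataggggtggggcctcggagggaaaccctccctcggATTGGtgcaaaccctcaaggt

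The Kif11 window held 1 CCAAT and 1 TTTGAA, the Ccnb2 window 3 CCAAT and 1 TTTGAA, and the Clspn window 2 CCAAT alone. Over the motor, cytokinesis and exit list, 18 of 29 matched windows (62.1%) held CCAAT and 13 (44.8%) held TTTGAA, against 34.5% and 16.3% of all 27025 windows. Of the 22 matched licensing and replication windows, 15 (68.2%) held CCAAT, 3 (13.6%) held TTTGAA and 5 (22.7%) held GCGGGAA, which 3.84% of all windows held. None of the 29 motor windows and none of the 21 spindle windows held GCGGGAA. Of the 21 spindle windows 14 (66.7%) held CCAAT and 3 (14.3%) held TTTGAA, the latter below the 16.3% of all windows. Among 12 windows of the macrophage genes, 4 (33.3%) held CCAAT and 1 each (8.33%) held TTTGAA and GCGGGAA. Other lists outside the cycle varied widely. CCAAT was in 4 of 5 MHC class II windows (80.0%) and in 2 of 11 inflammatory windows (18.2%). TTTGAA was in 3 of 8 alternative activation windows (37.5%) and in 0 of 12 lipid and tumour macrophage windows. GCGGGAA was in 3 of 13 windows of complement and dying-cell uptake genes (23.1%) and in 0 of 5 MHC class II windows. The base composition of the windows was not matched, and a match is a string of letters, not a bound site.

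**Figure D1:**
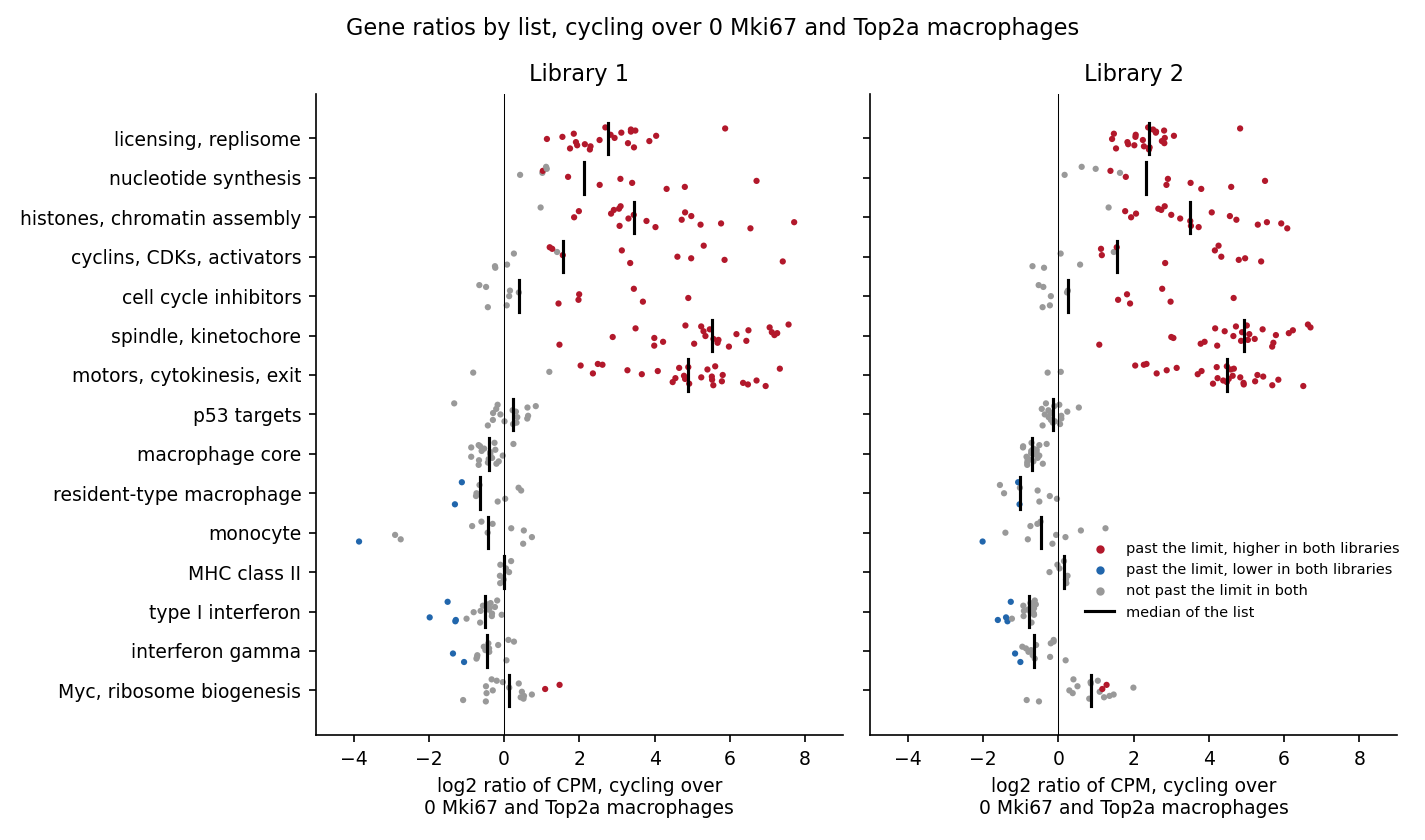
Log2 CPM ratio of cycling macrophages over zero macrophages (x axis) for each measured gene of 15 lists (rows), in library 1 and library 2. Red and blue points are past the limit in both libraries, black bars are list medians; the replication and mitosis lists lie right of 0 (medians 2.76 and 5.52 in library 1), the macrophage and interferon lists left of it (medians -0.39 and -0.51).

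The engine genes of the cycle were past the limit in 10 of 15 cyclins, kinases and activators, while the D-type cyclins of G1 were not. Ccna2, the cyclin of S and G2, stood at 99.7 and 98.8 CPM in members against 0.587 and 2.36 CPM in zero macrophages. Foxm1, an activator of mitotic genes, stood at 46.5 and 23.6 CPM against 1.17 and 1.23 CPM. Cdk1, the kinase that drives mitosis, stood at 157 and 154 CPM against 6.46 and 7.66 CPM.

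Ccnd1, cyclin D1, which links growth factor signals to the start of the cycle, took about as much of the RNA outside the cycle as in it, at 316 and 322 CPM in members and 372 and 419 CPM in zero macrophages. Its log2 ratios were -0.23 (-0.39 to -0.07) and -0.38 (-0.44 to -0.32). As mean UMIs per barcode it was higher in members, at 9.17 and 9.10 against 5.83 and 7.05. The form of cyclin D also separated macrophages from dividing lymphocytes. Cycling T-marker barcodes had 23.6 and 28.5 CPM of Ccnd1, and cycling NK-marker barcodes had 0 and 5.74 CPM. Ccnd3 went the other way, at 39.7 and 60.8 CPM in members against 135 and 155 CPM in cycling T-marker barcodes.

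Among the inhibitors of the cycle, 6 of 13 were past the limit, all of them higher in members. Cdkn2c, a CDK4 and CDK6 inhibitor (p18), stood at 68.2 and 52.95 CPM in members against 5.28 and 6.70 CPM in zero macrophages. E2f8, a repressor of E2F genes, stood at 57.7 and 23.6 CPM against 5.28 and 3.48 CPM. Cdkn2a (p16 and p19Arf) stood at 35.2 and 94.97 CPM against 12.9 and 25.3 CPM; without barcodes that held RNA of other lineages, described below, it was at 13.7 CPM in members of both libraries, against 9.33 and 9.34 CPM, and not past the limit.

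Cdkn1a, which encodes p21, the cell cycle brake induced by p53 after DNA damage, was abundant in members. It stood at 659 and 770 CPM in members and at 888 and 1029 CPM in zero macrophages, with log2 ratios of -0.43 (-0.54 to -0.32) and -0.42 (-0.46 to -0.38). As mean UMIs per barcode the order was the other way, with 19.1 and 21.75 in members against 13.9 and 17.3. Without barcodes that held RNA of other lineages, Cdkn1a stood at 801 and 985 CPM in members against 926 and 1056 CPM. The log2 ratios were then closer to 0, at -0.21 (-0.33 to -0.09) and -0.10 (-0.15 to -0.05). Cycling T-marker barcodes, by comparison, had 122 and 184 CPM. None of the 17 measured p53 target genes was past the limit, where 4.5% of all genes were higher and 0.482% lower. That count is near the share over all genes. The medians of the p53 targets were 0.23 in library 1 and -0.15 in library 2. Mdm2, the ubiquitin ligase that restrains p53, stood at 107 and 90.6 CPM in members against 90.1 and 87.7 CPM. Of 7 measured repair and checkpoint genes, 3 were past the limit and higher in members. Among them Topbp1, an activator of the ATR kinase, stood at 53.98 and 64.6 CPM in members against 11.4 and 14.4 CPM in zero macrophages. Only 7 of the 25 repair genes had enough UMIs to be measured, so this count covers a small share of them.

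Per barcode, members expressed replication and mitosis genes together. The 64 replication genes reached a median of 84.7 UMIs per 10000 in members of library 1 and 81.2 in library 2, against 14.2 and 14.0 in zero macrophages. The 57 mitosis genes reached 111 and 100 per 10000 against 11.5 and 11.2. Above the 95th percentile of zero macrophages for both gene sets lay 44 of 46 members in library 1 and 296 of 330 in library 2. A further 1 and 18 members exceeded it for mitosis only, 0 and 2 for replication only, and 1 and 14 for neither. Within 10% of a limit were 1 and 21 members.

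**Figure D2:**
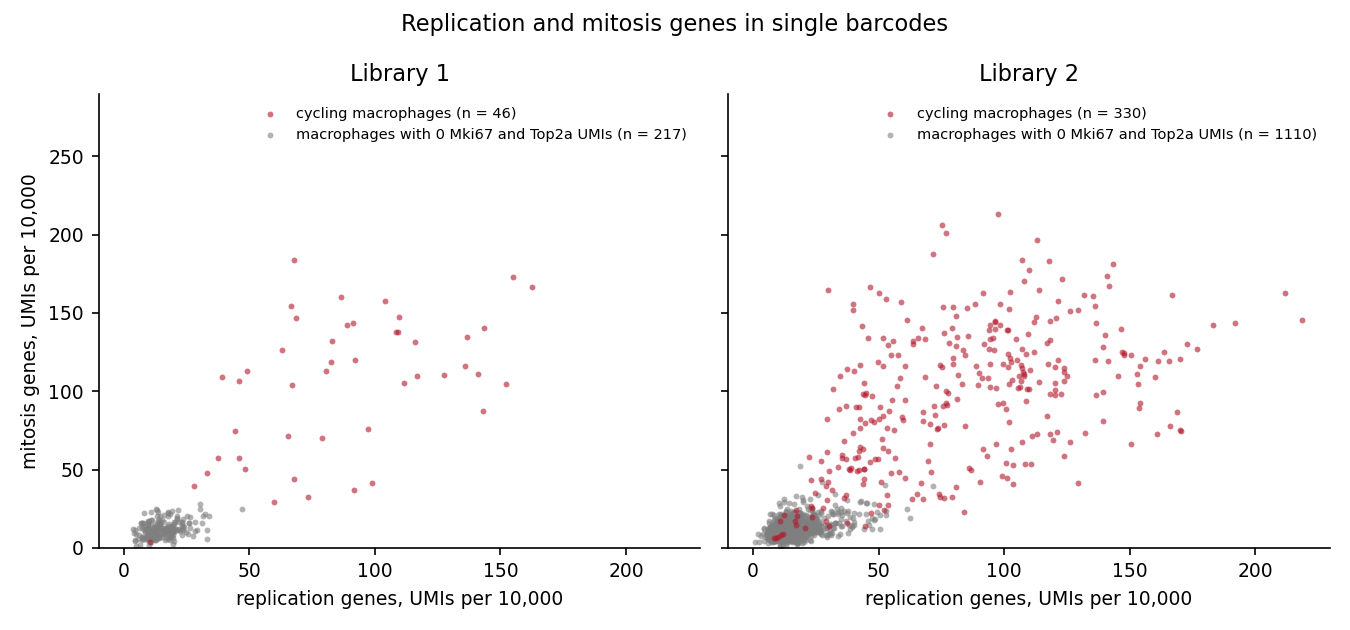
Each point is 1 barcode, with UMIs of replication genes (x axis) and of mitosis genes (y axis) per 10000 UMIs, in library 1 and library 2. Red cycling macrophages (46 and 330) extend up and to the right of grey zero macrophages (217 and 1110), with 44 and 296 of them above the 95th percentile of the grey points on both axes.

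Dividing lymphocytes of the same libraries were richer in replication genes. Cycling T-marker barcodes had medians of 146 and 131 replication UMIs per 10000, and cycling NK-marker barcodes 158 and 129, above the 84.7 and 81.2 of members. Mitosis genes were closer, with 89.3 and 112 in T-marker and 130 and 115 in NK-marker barcodes. Against cycling T-marker barcodes, 22 of 26 licensing and replisome genes had lower levels in members of both libraries, beside 2678 of all 6587 genes. Their median log2 ratios were -0.63 and -0.35, but 1 of them was past the limit. Of 20 histone and chromatin assembly genes 7 were past the limit and lower in members, where 6.21% of all genes were. Spindle genes had medians of 0.34 and -0.07, and none of 25 was past the limit in either direction. Of 16 p53 targets 5 were past the limit and higher in members, where 12.3% of all genes were. Against cycling NK-marker barcodes 8 of 19 histone genes were lower, beside 4.05% of all genes, and 5 of 9 p53 targets were higher, beside 16.9%.

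Ordered from the replication end to the mitosis end by the balance of the 2 gene sets, members of each library were divided into 3 groups of equal size, 16, 15 and 15 in library 1 and 110 each in library 2. Genes of the 2 sets follow the ordering by construction. Cenpf, a kinetochore protein, stood at 70.5, 149 and 286 CPM and at 62.7, 122 and 261 CPM. Hist1h1b ran the other way, at 263, 173 and 65.5 CPM in library 1 and at 491, 263 and 109 CPM in library 2.

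Genes outside both sets differed along the ordering too. Ccnb1, the cyclin of mitotic entry, stood at 23.5, 42.2 and 135 CPM in library 1 and at 30.4, 53.6 and 107 CPM in library 2. Cdkn1a was at 522 (455 to 595), 677 (603 to 758) and 768 (690 to 853) CPM in library 1 and at 612 (586 to 639), 769 (739 to 801) and 965 (928 to 1002) CPM in library 2. It was therefore highest at the mitosis end in both libraries, and its intervals at the 2 ends did not overlap. Ccnd1 was highest at the replication end, at 381, 278 and 295 CPM in library 1 and 366, 349 and 237 CPM in library 2. Csf1r stood at 477, 502 and 509 CPM in library 1, with overlapping intervals, and at 443 (421 to 465), 496 and 531 (504 to 559) CPM in library 2, where the intervals at the ends did not overlap. The barcodes of a group share 1 library, so these values are a description.

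**Figure D3:**
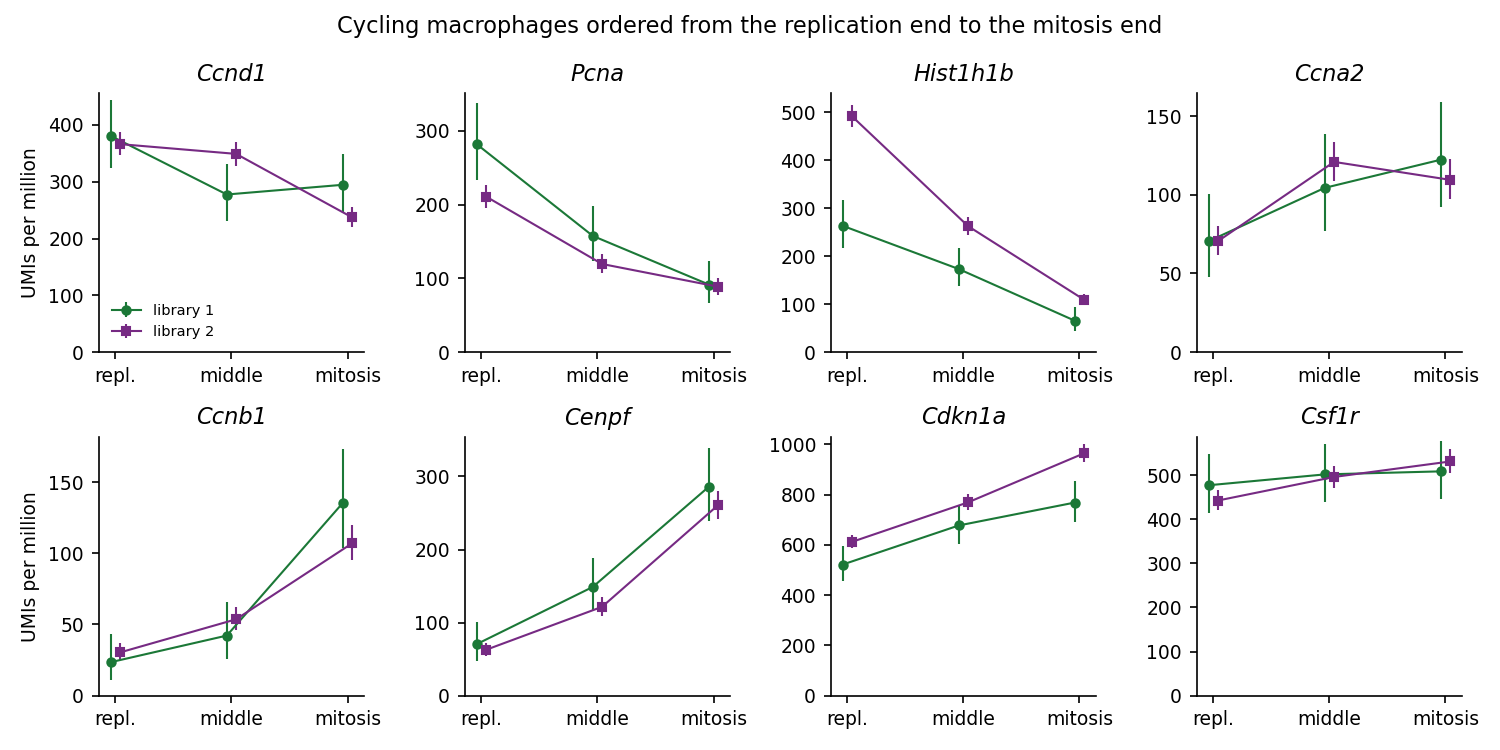
CPM (y axes) of 8 genes in cycling macrophages grouped from the replication end to the mitosis end (x axes) in library 1 (green circles) and library 2 (purple squares), with exact Poisson 95% intervals. Ccnd1, Pcna and Hist1h1b are highest at the replication end; Ccnb1, Cenpf and Cdkn1a are highest at the mitosis end, where Cdkn1a reaches 768 and 965 CPM.

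Macrophage identity genes took a smaller share of the RNA of members. None of the 20 macrophage genes was past the limit, with medians of -0.39 in library 1 and -0.69 in library 2. Below 0 in both libraries were 19 of these 20, beside 2903 of all 7261 genes compared. Ctsb, the lysosomal protease cathepsin B, stood at 1636 and 1606 CPM in members against 2993 and 3081 CPM in zero macrophages. Fcgr1, the high-affinity IgG receptor, stood at 481 and 438 CPM against 648 and 777 CPM. The exception was Cx3cr1, the fractalkine receptor, with log2 ratios of 0.25 and -0.31. These shares depend in part on barcodes that held RNA of other lineages, described below. Without them the log2 ratios were -0.14 and -0.07 for Csf1r, -0.10 and -0.33 for Cd68 and -0.35 and -0.55 for Fcgr1. In that smaller set they were -0.74 and -0.58 for Adgre1, -0.76 and -0.71 for Ctsb and 0.29 and 0.04 for Cx3cr1.

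Counted as mean UMIs per barcode the picture differed, as members had more UMIs in all. Csf1r averaged 14.4 and 13.8 UMIs per barcode in members and 8.97 and 10.9 in zero macrophages. Cd68, a lysosomal membrane protein, averaged 12.7 and 11.8 against 7.58 and 11.1. Both were thus higher per barcode in members. Ctsb averaged 47.4 and 45.4 against 47.0 and 51.8, and Adgre1 6.04 and 5.69 against 5.22 and 6.00, each with the higher mean in members of library 1 and in zero macrophages of library 2.

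The monocyte gene Ly6c2 and some interferon genes were lower on both scales, but the monocyte genes as a list did not move one way. Ly6c2, the marker of inflammatory monocytes, stood at 78.0 and 82.96 CPM in members and at 1127 and 335 CPM in zero macrophages, with log2 ratios of -3.85 (-4.15 to -3.57) and -2.01 (-2.12 to -1.91). It averaged 2.26 and 2.35 UMIs per barcode in members against 17.7 and 5.63. Members of both libraries thus lay near the same level, while zero macrophages of library 1 lay far above those of library 2. Plac8, another gene of young monocytes, stood at 77.2 and 256 CPM in members against 518 and 449 CPM; its ratio in library 2, -0.81, was not past the limit. Ccr2, the receptor that brings monocytes into tissue, was not lower in library 1, at 709 and 282 CPM in members against 499 and 315 CPM. Of 11 measured monocyte genes, Ly6c2 alone was past the limit, 7 were below 0 in both libraries and 3 above 0: Fn1, S100a4 and S100a6. Of all 7261 genes compared, 2903 were below 0 in both libraries and 2591 above 0. The 12 genes of the list summed to 6161 and 10930 CPM in members against 7341 and 7214 CPM in zero macrophages. The largest part in library 2 came from S100a6, a calcium-binding protein, at 7008 CPM in members against 2940 CPM. The same list summed to 3908 and 6785 CPM in cycling T-marker barcodes and to 1818 and 9799 CPM in non-cycling ones. Its sum was thus not particular to macrophages in library 2.

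All 18 type I interferon genes had lower CPM in members of both libraries, with medians of -0.51 and -0.77. Past the limit were 4 of them: Ifit1, Ifit2, Rsad2 and Cmpk2. Of all 7261 genes compared, 2903 were lower in both libraries and 35 were past the limit and lower. Rsad2, the antiviral enzyme viperin, stood at 113 and 197 CPM in members against 442 and 516 CPM in zero macrophages, and averaged 3.26 and 5.57 UMIs per barcode against 6.95 and 8.69. Ifit1, which binds foreign RNA, averaged 2.54 and 2.27 UMIs per barcode against 3.38 and 3.45. Isg15, a ubiquitin-like protein, was at 583 and 543 CPM against 906 and 891 CPM, not past the limit, and averaged 16.9 and 15.4 UMIs per barcode in members against 14.2 and 15.0. Of 14 interferon gamma genes 2 were past the limit and lower in members, the T-cell attractant Cxcl9 (330 and 90.0 CPM against 689 and 181 CPM) and the GTPase Gbp5. Slfn5, an interferon-induced gene outside the lists, stood at 122 and 104 CPM against 465 and 348 CPM.

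**Figure D4:**
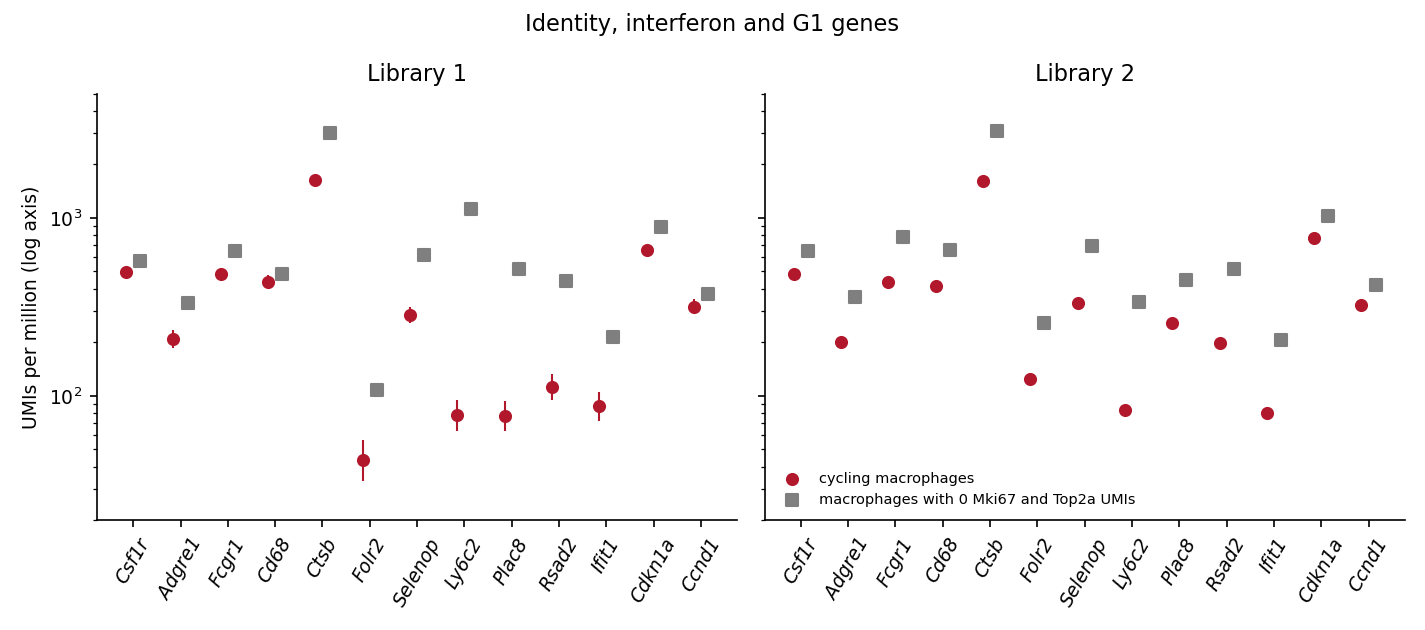
CPM on a log axis of 13 genes in cycling macrophages (red, with Poisson 95% intervals) and zero macrophages (grey squares) of library 1 and library 2. Ly6c2 shows the widest gap in both libraries, 78.0 and 82.96 CPM in cycling macrophages against 1127 and 335 CPM; Csf1r, Cdkn1a and Ccnd1 lie close in both sets.

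Resident-type genes were past the limit in 2 of 9, both lower in members. Folr2, a folate receptor of resident-type macrophages, stood at 43.5 and 125 CPM in members against 107 and 255 CPM in zero macrophages. Selenop, a secreted selenium carrier, stood at 286 and 331 CPM against 621 and 695 CPM. Without barcodes that held RNA of other lineages neither was past the limit, with log2 ratios for Folr2 of -1.17 and -0.88 and for Selenop of -0.94 and -0.82. Retnla, a product of alternative activation, had 0 UMIs in members of library 2 and 18.7 CPM in library 1, against 14.0 and 90.1 CPM; in that smaller set it had 2.65 CPM in zero macrophages of library 2 and was not measured. MHC class II genes lay close in the sets, with medians of -0.01 and 0.15 over 7 genes, none of them past the limit. H2-Aa stood at 5522 and 1204 CPM in members against 5928 and 1039 CPM.

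Other genes past the limit and higher in members lay outside the core of the cycle. Prdx4, a peroxide-reducing enzyme of the secretory pathway, stood at 185 and 245 CPM in members against 52.3 and 78.1 CPM in zero macrophages. Ranbp1, a regulator of nuclear transport, stood at 304 and 374 CPM against 109 and 154 CPM, and Pa2g4, a growth-related RNA-binding protein, at 118 and 134 CPM against 55.2 and 59.7 CPM. These last were 2 of 17 measured genes of the Myc and ribosome biogenesis list. Srm, spermidine synthase, was at 21.0 CPM in members of library 1 and 102 CPM in library 2, against 19.1 and 25.6 CPM. Of 5 measured fibroblast markers, 2 were also past the limit and higher in members. In library 1 the member richest in fibroblast markers held 341 of their UMIs, where the median was 0.5. None of 10 measured genes reported as miR-21 targets, none of 17 glycolysis genes and none of 13 cholesterol and fatty acid genes was past the limit. Over all genes 4.5% were past it and higher and 0.482% lower, so these counts say little about lists so small. Of 15 genes that tissue dissociation induces, 2 were past it and lower in members, the chaperones Hspa1a and Hspa1b; Hspa1a stood at 95.2 and 49.5 CPM against 279 and 134 CPM.

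The cycling share followed the state of the macrophage only in part. After thinning to 5000 UMIs for the state genes, the members as chosen by the rule were 12.8% (6.32 to 22.3) of macrophages with a Folr2 UMI in library 1 and 15.1% (10.8 to 20.2) of those without. In library 2 they were 14.2% (11.9 to 16.7) with and 20.3% (17.9 to 22.9) without. Non-cycling T-marker barcodes, which should lack Folr2, had a Folr2 UMI in 0.177% and 1.75%. For Cx3cr1 the cycling share was 18.1% (13.3 to 23.8) with a UMI and 6.25% (2.33 to 13.1) without in library 1, and 19.2% (17.2 to 21.4) with and 12.0% (9.14 to 15.4) without in library 2. For Spp1, which encodes osteopontin, it was 19.7% (17.6 to 21.8) with and 11.3% (8.64 to 14.5) without in library 2, and 18.1% with and 11.7% without in library 1, where the intervals overlap. Spp1 UMIs were also found in 20.3% of non-cycling T-marker barcodes of library 2. As CPM, Spp1 lay close in the sets of library 2. With a Folr2 UMI it stood at 1209 CPM in members and 1345 CPM in zero macrophages, and without one at 1147 and 1123 CPM. Cx3cr1 in library 2 stood at 442.5 CPM in members against 591.9 CPM with a Folr2 UMI, and at 425.9 against 419.4 CPM without. In library 1 Cx3cr1 stood at 499 CPM in members against 465 CPM with a Folr2 UMI, and at 553 against 442 CPM without. The share with a Ccr2 UMI was 18.9% against 6.31% without in library 1, but 18.5% against 16.1% in library 2. For Trem2 it was 16.05% with and 9.46% without in library 1, but 16.85% and 22.2% in library 2. For Mrc1 it was 15.25% with and 12.35% without in library 1, and 17.3% and 18.0% in library 2.

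Cycling macrophages with and without a Folr2 UMI differed in several genes, as zero macrophages did, though not in all of them alike. In library 2, the 216 members with a Folr2 UMI had 472 CPM of H2-Aa and 1731 CPM of Pf4, and the 114 without had 2868 and 891 CPM. In zero macrophages of library 2, the 726 with a Folr2 UMI had 404 CPM of H2-Aa and 1923 CPM of Pf4, and the 384 without had 2627 and 486 CPM. In library 1, 14 members with a Folr2 UMI had 1932 CPM of H2-Aa, and 32 without had 7294 CPM. Ly6c2 was less alike in library 2, where it stood at 86.6 CPM in members with a Folr2 UMI and 74.7 CPM in those without, against 136 and 832 CPM in zero macrophages with and without. In library 1 it stood at 27.2 and 103 CPM in members, against 326 and 1557 CPM in zero macrophages. The difference of these contrasts between the sets was not tested. Median depths of members with and without a Folr2 UMI were 30886.5 and 26793.5 UMIs in library 1 and 23303.5 and 21451.5 in library 2.

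Cycling macrophages were also compared between the libraries, as ratios of library 1 over library 2. In members, 207 of 9409 genes (2.2%) were past the limit with higher levels in library 1 and 362 (3.85%) with higher levels in library 2. In zero macrophages the counts were 235 (2.34%) and 176 (1.75%) of 10043.

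Antigen presentation genes were higher in library 1. Of 8 MHC class II genes, 7 were past the limit, with a median log2 ratio of 2.16 in members and 2.35 in zero macrophages. H2-Ab1 stood at 5429 CPM in members of library 1 and 1116 CPM in library 2, and Ciita, the master activator of these genes, at 68.2 and 7.07 CPM. Other genes led by library 1 in members were Ear2, a ribonuclease of myeloid cells (151 and 5.25 CPM), Lpl, lipoprotein lipase (72.7 and 7.61 CPM), Mgl2, a galactose-binding lectin (239 and 25.1 CPM), and Igf1, a growth factor (69.0 and 10.9 CPM). H2 genes are a multigene family, so the division of reads among near-identical members is uncertain.

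Genes with higher levels in library 2 included Pf4, a platelet-type chemokine made by resident-type macrophages, at 274 CPM in members of library 1 and 1474 CPM in library 2. Folr2 stood at 43.5 and 125 CPM, F13a1, a clotting factor subunit, at 42.7 and 180 CPM, and Spp1 at 575 and 1190 CPM. Few cell cycle genes were past the limit between the libraries. None of 27 measured licensing and replisome genes was, nor any of 25 spindle genes, with medians of -0.04 and 0.27. In the other cell cycle lists E2f2, an activator of replication genes, the kinesin Kifc1, E2f8 and Dck were past it and higher in library 1, and Cdkn2a was past it and higher in library 2. Without barcodes that held RNA of other lineages, E2f2, E2f8, Dck and Cdkn2a were not past it. Their log2 ratios of library 1 over library 2 were then 0.53, 1.055, 0.78 and 0.0069.

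The 10 highest-ranked genes of library 2 in members were mostly those of cytotoxic lymphocytes, with granzymes, Klrd1, Nkg7 and Xcl1 among them. Gzmc, a granzyme, stood at 2.999 CPM in members of library 1 and 815 CPM in library 2, and Gzmb at 0.750 and 161 CPM. The 12 NK markers summed to 42.7 and 1369 CPM in members and to 84.0 and 472 CPM in zero macrophages, and 3 of the 12, Ncr1, Eomes and Klra8, were at 0 in members of library 1. At least 5 NK-marker UMIs were found in 2 of 46 members in library 1 (4.35%) and in 74 of 330 in library 2 (22.4%), against 3.23% and 9.28% of zero macrophages. Fibroblast markers summed to 279 and 912 CPM in members against 199 and 376 CPM, with at least 5 UMIs in 2.17% and 8.48% of members against 2.76% and 1.17%. T markers outside the rule summed to 9.75 and 43.3 CPM in members against 23.2 and 23.8 CPM.

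Without the barcodes that held at least 5 UMIs of any other lineage's markers, a choice made after seeing the data, 32 and 233 members were left. The genes past the limit with higher levels in library 2 then numbered 81 of 7794 (1.04%), of which 54 were among the 362. Those with higher levels in library 1 numbered 128 (1.64%), of which 99 were among the 207. H2-Ab1 still stood at 5574 and 1268 CPM, and Pf4 at 295 and 1796 CPM. The Myc and ribosome biogenesis genes, 5 of 19 of which were past the limit and higher in library 2 at first, moved: Srm stood at 18.3 and 35.6 CPM and Npm1 at 574 and 691 CPM, neither past the limit. Chil3, a chitinase-like protein, changed from 64.5 and 9.11 CPM in all members to 5.72 and 8.24 CPM. In the comparison with zero macrophages 242 of 6483 genes (3.73%) were higher and 25 (0.386%) lower in that smaller set, beside 4.5% and 0.482% at first. The part of RNA from neighbouring cells or of barcodes with more than 1 cell in these values was not tested.

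**Figure D5:**
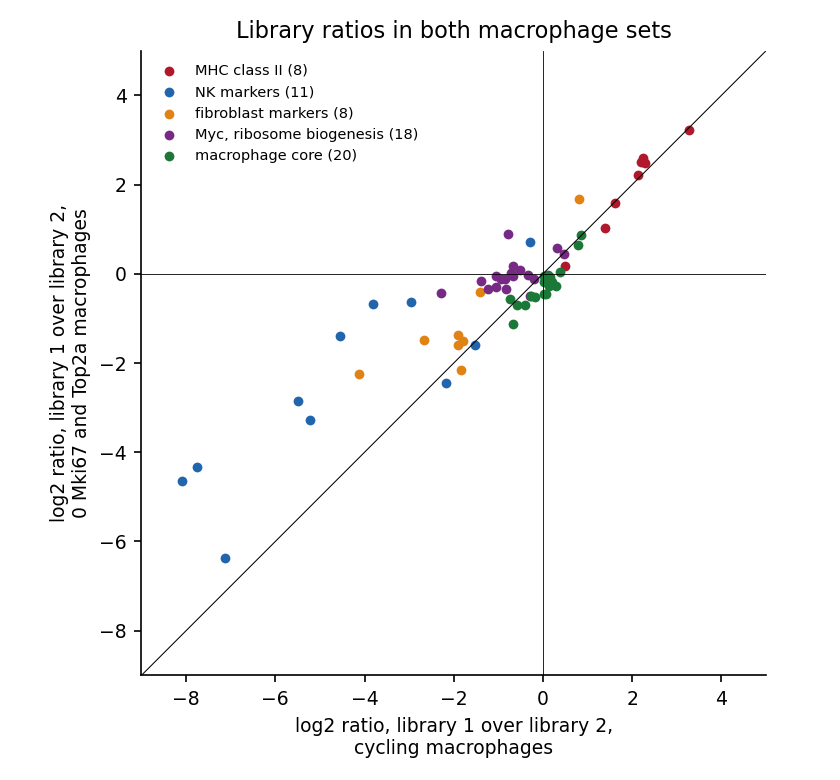
Log2 ratio of library 1 over library 2 in cycling macrophages (x axis) and in zero macrophages (y axis) for genes of 5 lists; the diagonal marks equal ratios. Most MHC class II genes lie high on both axes (up to 3.27 and 3.23), macrophage genes near 0, and most NK markers low on both, down to -8.09 in cycling and -6.38 in zero macrophages.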

How the data were processed

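The authors' deposited files are a sparse matrix of UMI counts per gene and barcode with its gene and barcode lists, both libraries in 1 matrix of 31053 genes. The submitters' processing notes name Cell Ranger and build mm10; per the file headers, the matrix was written by software version 3.1.0. The sources used here do not give how reads on either strand or of near-identical genes were counted. Barcodes were taken as deposited and split by suffix. UMI counts were summed over each set of barcodes per library and divided by the set's total, as CPM; intervals are exact Poisson, Clopper-Pearson or conditional binomial, and a set at 0 was given a floor of 3 counts per set and library. With 1 library per group there are no replicates, and no p-value is given. Scrublet, run in scanpy 1.11.5, called 0 doublets in either library by its automatic threshold and so did not work; the 5% highest scores were left out as an alternative, and held 4.35% and 10.6% of members against 1.84% and 2.52% of zero macrophages. T-marker barcodes held at least 4 CD3 UMIs, NK-marker barcodes at least 2 UMIs of Ncr1 and Klrb1c and at most 1 CD3 UMI, both at most 3 C1q UMIs. Named genes came from 37 gene lists or were the 10 highest-ranked per direction with at least 50 CPM in a set. All 574 listed genes were found. Members and lists were chosen with earlier results of these data known. The ratio code was tested on simulated data. Alternatives were other Mki67, Top2a and C1q limits, thinning, other barcode sets, equal weight per barcode and a minimum of 200 UMIs. Results for some genes are not reported here.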

Additional observations from a re-analysis of the deposited data

Results flagged for a closer look

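In 5 genes the ratio of cycling over zero macrophages was past the limit in opposite directions in the libraries; the difference between the libraries was not tested. Xcl1, a lymphocyte chemokine, had a log2 ratio of -5.47 in library 1 and 2.15 in library 2, from 1.499 and 170 CPM in cycling macrophages against 66.6 and 38.4 CPM. Nkg7, a cytotoxic granule protein, had -1.82 and 1.34, and Ifitm1, an interferon-induced membrane protein, -1.63 and 1.13. Hbegf, a ligand of the EGF receptor, had -1.71 and 1.77, from 8 UMIs in library 1 and 294 in library 2 in cycling macrophages. Ccl17, a chemokine of dendritic cells and alternatively activated macrophages, had -1.39 and 1.47, from 35.2 and 3.11 CPM against 92.2 and 1.12 CPM. The 12 NK markers summed to 42.7 and 1369 CPM in cycling macrophages against 84.0 and 472 CPM in zero macrophages. Without barcodes holding other-lineage UMIs the log2 ratios in library 1 and library 2 were -1.50 and -0.24 for Xcl1, -0.33 and -0.75 for Nkg7, -3.08 and 0.39 for Ifitm1 and -2.24 and 1.79 for Ccl17. Xcl1 and Nkg7 thus turned in library 2, Ifitm1 was not past the limit there, and Xcl1, Nkg7 and Ccl17 had too few UMIs to be measured in that smaller set.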

How the results depend on the processing

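No paired analysis was possible because each group has 1 sample and the barcode suffixes carry no replicate number. The cycling share of C1q macrophages was 20.1% in library 1 and 24.8% in library 2 with at least 2 Mki67 and Top2a UMIs, 14.0% in library 2 with at least 8, 9.25% and 7.94% after thinning to 5000 UMIs, and 15.1% in library 2 without barcodes of other lineages. Genes higher and lower in cycling than in zero macrophages numbered 60 and 10 after thinning, which left 3478 genes measured. With a minimum of 200 UMIs 101 of 3224 were higher. Genes higher in library 1 and in library 2 within members numbered 24 and 37 of 2293 after thinning. They numbered 121 and 77 of 6238 without members holding NK or T marker UMIs, and 115 and 193 of 5711 with the 200 UMI minimum. Without other-lineage barcodes they numbered 128 and 81 of 7794. With equal weight per barcode 620 of 9409 were higher in library 2. The NK and T marker setting left out members with at least 2 UMIs of either list. It kept 34 of 46 members in library 1 and 111 of 330 in library 2. Zero macrophages were not filtered in that setting. The median of the cyclin list in library 2 turned to -0.36 after thinning. Over zero macrophages, Cdkn2a in library 2 turned to -0.62 without members holding NK or T marker UMIs, where Col3a1 turned to -3.17 and -0.15 and Dcn to -1.20 and -0.16 in library 1 and library 2; without the highest Scrublet scores Col3a1 and Dcn turned to -3.63 and -1.92 in library 1. Library 1 over library 2 in members, Cxcl9 turned to -0.44 and Egr1 to 0.43 after thinning, and without other-lineage barcodes Egr1 turned to 0.37, Tpm1 to 0.16 and Cdkn2a to 0.0069. Thinning chose both sets anew on the thinned counts. It left 27 and 125 members and 234 and 1205 zero macrophages in library 1 and library 2. Barcodes that held Mki67 or Top2a UMIs before thinning could thus count as zero macrophages. Apart from fewer genes and changed barcode sets, the cause was not tested. Depth limits the low genes: 7261 of 31053 genes could be compared with zero macrophages, and library 1 holds 46 members.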
